A study of Homo sapiens with 54 samples.

Results

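The genes described are 34 genes of glycolysis and of the cell's response to low oxygen, named by symbol in a list of textbook pathway members. The list was chosen with earlier results of these data known, so its counts are not independent of the data. A gene was taken as measured where a probe of the array carried a RefSeq accession of that symbol, and the probe with the highest mean over all arrays stood for the gene. By this rule 33 of the 34 genes were measured, of 19715 genes with a symbol on the array. ALDOA, an aldolase of the upper pathway, was not matched to a probe and has no value here. All 33 genes but CA9 were well above background on 54 of 54 arrays. CA9, which encodes a carbonic anhydrase of the cell surface, was so on 25 of 54 arrays.

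Glycolysis turns glucose into pyruvate. SLC2A1 and SLC2A3 carry glucose into the cell, hexokinase traps it, the enzymes of the upper pathway split the sugar, and the enzymes of the lower pathway recover ATP. Lactate dehydrogenase turns pyruvate into lactate, which leaves through SLC16A3 or SLC16A1, while the PDK kinases hold back pyruvate dehydrogenase and so keep pyruvate out of the mitochondria. Many of these genes are targets of the hypoxia-inducible factors (HIF). When oxygen is present, the prolyl hydroxylases encoded by EGLN1 and EGLN3 mark the HIF alpha subunits for destruction, and both genes are themselves HIF targets. Human pluripotent stem cells are known for a high rate of glycolysis even in the presence of oxygen.

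The study asked whether FGFC, a stable chimera made of parts of FGF1 and FGF2, could replace basic FGF (bFGF) in the culture of human pluripotent stem cells. RNA of 27 cultures was labelled in 1 colour and each culture was hybridised to 2 arrays, which were averaged. All cells were established lines. The labels give an incubator with 3 or 5% CO2 and name no oxygen level.

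In the short-term experiment, the embryonic stem cell line H1 (WA01) was grown in E8 Medium, which is Essential 6 with TGF-beta 1 and bFGF. The cells were sampled before the start (pre-culture) and after 4 days with 100 ng/mL bFGF, with 100 ng/mL FGFC or with no FGF, in 3 experiments. The other components of the medium were shared by all arms, and the pre-culture cells had received 100 ng/mL bFGF. In experiment 2 the labels put the pre-culture at passage 49 and the 4-day cultures at passage 59, against steps of 1 passage by the titles in experiments 1 and 3. In experiment 3 the titles and the other labels gave different passage numbers for some arrays. In the long-term experiment, 5 systems were each sampled as a pre-culture and after about 10 passages with bFGF or FGFC. They were H1 in E8 Medium (100 ng/mL, 30 days), H1 in medium conditioned by mitomycin-treated mouse embryonic fibroblasts (MEF-CM, 5 ng/mL, 41 days), the embryonic line KhES-1 on MEF feeder cells (5 ng/mL, 30 days), the induced pluripotent line 201B7 on MEF feeder cells (10 ng/mL, 50 days) and the induced pluripotent line 253G1 in E8 Medium (100 ng/mL, 36 days). Both induced lines came from human dermal fibroblasts. Each system had 1 culture per arm, so that line, medium and handling differed together except where the line was shared. The labels do not say whether feeder cells were removed before RNA was taken. One further culture of H1 had been differentiated as embryoid bodies that were first suspended and then attached, and its labels give no FGF, medium or passage. For embryoid bodies the paper's methods describe a medium with serum replacement in place of E8 Medium and list no FGF in it.

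Between 56.0 and 79.2% of the probes of an array were well above background (median 67.5%), and no spot was saturated. The signal at the 75th percentile before scaling was 182 and 234 units on the 2 arrays of the 201B7 pre-culture, which stood apart, and ran from 504 to 914 on the other arrays. All levels below are log2 signals minus that percentile of the same array, so that 0 marks the 75th percentile of the probes and 1 unit is 2-fold. Duplicate arrays of a culture differed by a median of 0.0722 over the measured genes, and most for CA9 (0.303). The number of cultures limits the precision, since duplicate arrays were averaged. In RNA of a whole culture, fewer cells of a type and less RNA per cell cannot be told apart.

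The stretches just before the start sites are shown for 5 of the 13 genes that passed the test without FGF against bFGF (below). Of these 5, ADM, EGLN1, ALDOC and LDHA fell and EGLN3 rose. HIF binds DNA at the letters ACGTG or GCGTG, and the capitals mark each such match on either strand (on the other strand CACGT or CACGC). Each stretch is the 250 bases before the first listed start, written on the gene's strand, from RefSeq on GRCh38.p14. A palindrome CACGTG counts once on each strand. The stretches lie at chr11:10304823-10305072 (ADM, plus strand), chr1:231422288-231422537 (EGLN1, minus strand), chr17:28576896-28577145 (ALDOC, minus strand), chr11:18394313-18394562 (LDHA, plus strand, the first of 2 listed starts) and chr14:33951075-33951324 (EGLN3, minus strand).
ADM: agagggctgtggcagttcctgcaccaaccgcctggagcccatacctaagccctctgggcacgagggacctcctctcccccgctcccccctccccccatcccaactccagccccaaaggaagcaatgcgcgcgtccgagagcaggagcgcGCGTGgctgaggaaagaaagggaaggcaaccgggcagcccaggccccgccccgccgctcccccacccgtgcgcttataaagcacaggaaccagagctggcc
EGLN1: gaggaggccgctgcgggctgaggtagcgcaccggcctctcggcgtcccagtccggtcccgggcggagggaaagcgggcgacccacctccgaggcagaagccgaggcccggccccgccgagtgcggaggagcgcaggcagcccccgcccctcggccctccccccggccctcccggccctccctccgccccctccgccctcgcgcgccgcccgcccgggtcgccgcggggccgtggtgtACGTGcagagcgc
ALDOC: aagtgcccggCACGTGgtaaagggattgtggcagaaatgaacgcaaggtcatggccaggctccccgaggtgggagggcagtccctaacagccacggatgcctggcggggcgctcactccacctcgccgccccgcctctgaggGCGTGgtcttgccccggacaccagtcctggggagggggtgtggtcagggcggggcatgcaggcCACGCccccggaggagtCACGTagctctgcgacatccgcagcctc
LDHA: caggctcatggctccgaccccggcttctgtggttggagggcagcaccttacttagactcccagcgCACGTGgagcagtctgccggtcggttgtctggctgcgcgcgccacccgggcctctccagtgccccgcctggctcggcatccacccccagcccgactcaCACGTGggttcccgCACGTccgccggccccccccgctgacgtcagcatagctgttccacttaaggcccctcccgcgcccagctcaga
EGLN3: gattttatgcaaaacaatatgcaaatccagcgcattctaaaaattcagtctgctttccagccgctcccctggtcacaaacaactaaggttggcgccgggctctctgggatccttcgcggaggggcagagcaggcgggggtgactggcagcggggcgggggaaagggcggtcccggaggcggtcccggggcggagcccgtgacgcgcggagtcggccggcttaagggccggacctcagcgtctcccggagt

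ALDOC and LDHA each held 5 matches, ADM and EGLN1 held 1, and EGLN3 held 0 in this window. Of the 33 measured genes, 28 had such a window, and 17 of them (60.7%) held a match. Among 27305 genes with a window the share was 43.1%. Of the 12 genes that fell against bFGF (below), 9 had a window and 5 of these held a match. SLC2A1, HK1, PFKP and PDK1 also fell, held 0 matches in this window and are not shown. HK1, PFKP and PDK1 had 7, 4 and 2 listed starts, and each held a match before at least 1 of its later listed starts. A match is a description of letters and was not tested for binding.

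The first comparison asked what happened to these genes when FGF was left out for 4 days. Against bFGF, 12 of the 33 genes fell and 1 rose. The genes that fell included the glucose transporter SLC2A1, the lactate transporter SLC16A1, the hexokinase HK1, the oxygen sensor EGLN1, the secreted peptide ADM and the growth factor VEGFA, and the gene that rose was EGLN3. Of all probes, 7.2% fell and 5.55% rose in this comparison. The median difference was -0.63 over the 33 genes and 0.01 over all probes, and 25 of the 33 genes lay below zero. Against FGFC, with the same cultures without FGF, 9 of the 33 genes fell and 1 rose, while 6.07% of all probes fell and 4.72% rose. There the median difference was -0.24 over the genes and -0.02 over all probes.

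**Figure D1:**
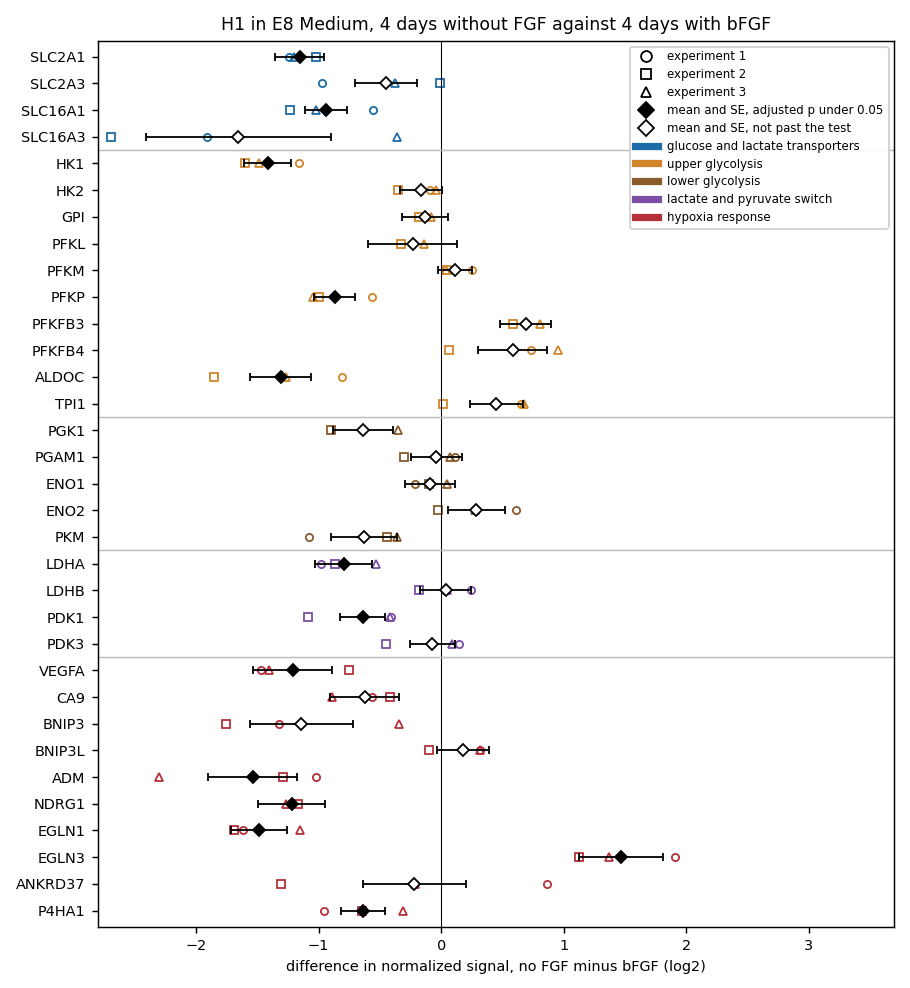
Difference in normalized signal (log2) between H1 cells after 4 days without FGF and with bFGF, for each of the 33 measured genes, ordered by role. Open symbols are the 3 experiments, diamonds with bars are the mean and its SE, and filled diamonds mark the 13 genes past the test, of which EGLN3 lies to the right of zero and the other 12 to the left.

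Among the 4 transporters, SLC2A1 and SLC16A1 fell. SLC2A1, the main glucose carrier of many dividing cells, stood at 3.98, 4.40 and 4.06 with bFGF, at 4.00, 4.25 and 4.03 with FGFC and at 2.74, 3.38 and 2.86 without FGF in experiments 1, 2 and 3. The cultures without FGF lay below all others. The difference to bFGF was -1.15 ± 0.20 (SE, as after every ± below, n = 3 and 3, adjusted p = 0.00313 by limma) and that to FGFC was -1.10 (adjusted p = 0.00471 by limma). SLC16A1, a carrier of lactate and pyruvate, stood at 1.94, 2.22 and 2.03 with bFGF, at 2.06, 2.39 and 2.31 with FGFC and at 1.38, 0.98 and 1.00 without FGF. It fell by 0.94 ± 0.17 against bFGF (adjusted p = 0.00374 by limma) and its difference to FGFC was -1.13 (adjusted p = 0.00131 by limma). The lactate exporter SLC16A3 varied most. It stood at 1.74, 2.37 and 0.05 with bFGF, at 0.94, 2.53 and 0.23 with FGFC and at -0.17, -0.33 and -0.31 without FGF. The difference to bFGF was -1.66 with an SE of 0.76 (adjusted p = 0.199 by limma), and the level with bFGF in experiment 3 was close to that without FGF. SLC2A3, a second glucose carrier, stood at 1.80, 1.92 and 2.05 with bFGF and at 0.84, 1.91 and 1.67 without FGF (difference -0.45, adjusted p = 0.303 by limma).

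Of the 10 measured genes of the upper pathway, HK1, PFKP and ALDOC fell and none rose. HK1, a hexokinase bound to mitochondria, stood at 3.50, 3.46 and 3.51 with bFGF, at 3.65, 3.05 and 3.29 with FGFC and at 2.34, 1.86 and 2.03 without FGF. Its cultures without FGF lay below every other culture of the experiment, and the difference to bFGF was -1.42 ± 0.19 (adjusted p = 0.000692 by limma). The other hexokinase, HK2, differed by -0.16 ± 0.17 and did not pass the test. ALDOC, an aldolase, stood at 1.05, 1.07 and 0.82 with bFGF, at 1.14, 0.78 and 0.59 with FGFC and at 0.24, -0.78 and -0.45 without FGF. All cultures without FGF lay below the rest, with a difference to bFGF of -1.31 ± 0.25 (adjusted p = 0.00516 by limma). PFKP, the platelet form of phosphofructokinase, stood at 3.97, 4.07 and 3.93 with bFGF, at 4.07, 4.09 and 3.96 with FGFC and at 3.40, 3.07 and 2.88 without FGF. It fell by 0.87 ± 0.17 (adjusted p = 0.00593 by limma), whereas the liver and muscle forms PFKL and PFKM differed by -0.23 ± 0.36 and 0.11 ± 0.14. The difference to FGFC was -1.25 for HK1, -1.16 for ALDOC and -0.92 for PFKP, all past the test. PFKFB3, which makes the activator of phosphofructokinase, stood higher without FGF (0.25, 0.63 and 0.59) than with bFGF (-0.43, 0.05 and -0.22). Its groups did not overlap and the difference was 0.69 ± 0.21 (adjusted p = 0.0521 by limma).

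None of the 5 genes of the lower pathway passed the test. Their differences to bFGF were -0.63 ± 0.25 for PGK1, -0.04 ± 0.21 for PGAM1, -0.09 ± 0.20 for ENO1, 0.29 ± 0.23 for ENO2 and -0.63 ± 0.27 for PKM. These enzymes carry the steps from bisphosphoglycerate to pyruvate. Of the 4 genes at the fork between lactate and the mitochondria, LDHA and PDK1 fell, and LDHB and PDK3 differed by 0.04 and -0.07. LDHA, the lactate dehydrogenase subunit that is a known HIF target, stood at 4.72, 4.75 and 4.13 with bFGF, at 4.61, 4.44 and 3.90 with FGFC and at 3.73, 3.88 and 3.60 without FGF. The difference to bFGF was -0.80 ± 0.23 (adjusted p = 0.0452 by limma), and that to FGFC was -0.58 (adjusted p = 0.156 by limma). Another probe of LDHA differed by -0.81 from bFGF (adjusted p = 0.0799 by limma). PDK1, which inhibits pyruvate dehydrogenase, stood at 1.24, 1.51 and 1.12 with bFGF, at 1.48, 1.44 and 1.05 with FGFC and at 0.83, 0.42 and 0.71 without FGF. It fell by 0.64 ± 0.18 (adjusted p = 0.041 by limma) and its difference to FGFC was -0.67 (adjusted p = 0.0375 by limma).

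**Figure D2:**
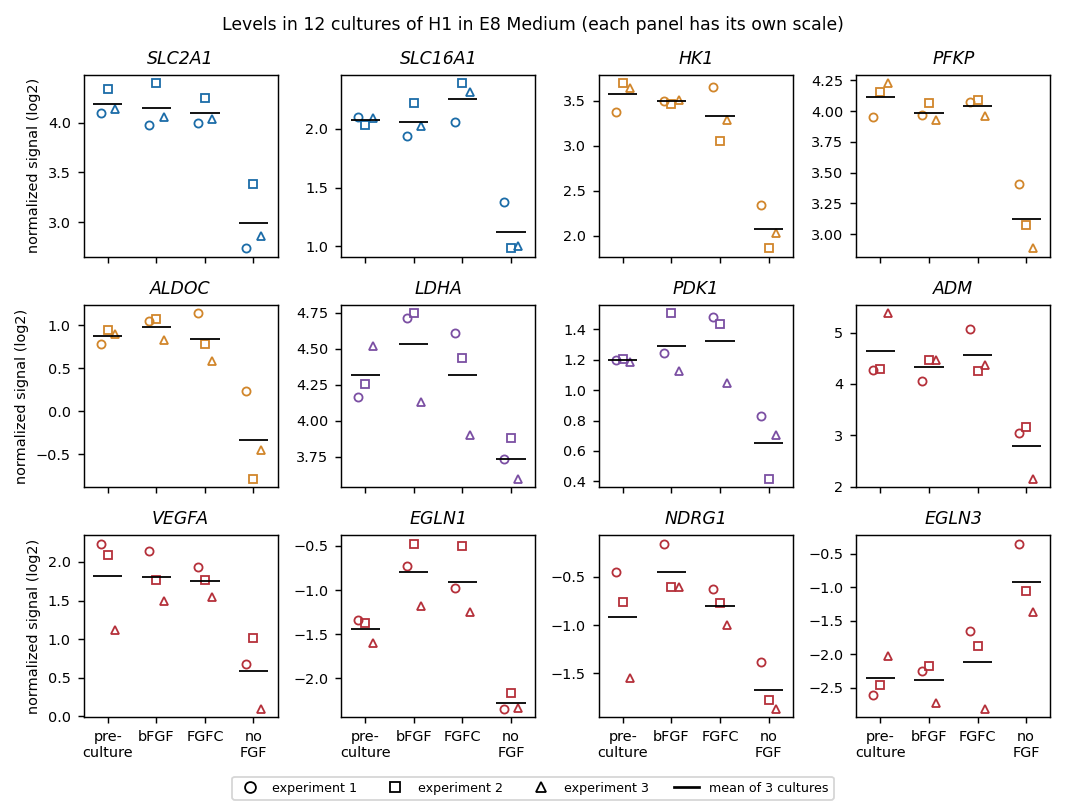
Normalized signal (log2, 0 is the 75th percentile of the array) of 12 of the 33 genes in the 12 cultures of H1 in E8 Medium, with a scale of its own for each gene. Symbols are the 3 experiments and lines are means of 3 cultures, and the cultures without FGF lie apart from those with bFGF for each gene shown, upwards for EGLN3 and downwards for the other genes.

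Of the 10 hypoxia response genes, ADM, EGLN1, NDRG1, VEGFA and P4HA1 fell and EGLN3 rose. ADM, which encodes the vasodilator peptide adrenomedullin, stood at 4.06, 4.46 and 4.46 with bFGF, at 5.08, 4.25 and 4.37 with FGFC and at 3.04, 3.17 and 2.16 without FGF. It differed by -1.54 ± 0.36 from bFGF (adjusted p = 0.0171 by limma) and by -1.78 from FGFC (adjusted p = 0.00904 by limma). EGLN1 stood at -0.73, -0.47 and -1.18 with bFGF, at -0.98, -0.50 and -1.24 with FGFC and at -2.35, -2.16 and -2.33 without FGF. The 3 cultures without FGF lay close to each other and below all others, at a difference of -1.49 ± 0.23 to bFGF (adjusted p = 0.00144 by limma) and -1.37 to FGFC (adjusted p = 0.00271 by limma). EGLN3, which acts on the same HIF subunits, went the other way. It stood at -2.26, -2.18 and -2.73 with bFGF, at -1.65, -1.88 and -2.82 with FGFC and at -0.35, -1.05 and -1.36 without FGF, and it rose by 1.47 ± 0.34 against bFGF (adjusted p = 0.0161 by limma) and by 1.20 against FGFC (adjusted p = 0.0473 by limma).

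NDRG1, a gene known to be induced by hypoxia and by differentiation, stood at -0.16, -0.61 and -0.60 with bFGF, at -0.62, -0.78 and -1.0 with FGFC and at -1.39, -1.77 and -1.87 without FGF. It fell by 1.22 ± 0.27 against bFGF (adjusted p = 0.013 by limma), and its difference to FGFC was -0.87 (adjusted p = 0.0671 by limma). VEGFA, the angiogenic growth factor, stood at 2.15, 1.77 and 1.50 with bFGF, at 1.93, 1.76 and 1.55 with FGFC and at 0.67, 1.01 and 0.09 without FGF. The difference was -1.21 ± 0.32 to bFGF (adjusted p = 0.0306 by limma) and -1.16 to FGFC (adjusted p = 0.0423 by limma), and a second probe of VEGFA differed by -0.87 from bFGF (adjusted p = 0.0405 by limma). P4HA1, a subunit of the collagen prolyl hydroxylase, had a difference of -0.64 ± 0.18 to bFGF (adjusted p = 0.041 by limma). BNIP3, which takes part in the removal of mitochondria, stood at 3.1, 3.44 and 1.97 with bFGF and at 1.78, 1.68 and 1.62 without FGF. Its groups did not overlap, but the bFGF culture of experiment 3 was near those without FGF and the difference of -1.14 ± 0.42 missed the threshold (adjusted p = 0.11 by limma). Its relative BNIP3L differed by 0.18, ANKRD37 by -0.22 and CA9 by -0.63, and CA9 was not well above background on any array without FGF.

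All 13 genes that passed the test against bFGF, and all 10 that passed it against FGFC, had the same sign in each of the 3 experiments. With the experiment as a block, 14 genes fell and 2 rose against bFGF, with SLC16A3 (adjusted p = 0.0447 by limma), BNIP3 (adjusted p = 0.0218 by limma) and PFKFB3 (adjusted p = 0.044 by limma, higher) added. With the slide as a block, 6 fell and 1 rose, and SLC16A1, PFKP, LDHA, PDK1, ADM and P4HA1 missed the threshold. That fit left out the pre-cultures. The bFGF culture of experiment 2 was alone on its slide, so it did not add to the difference in that fit. Without experiment 1, 6 genes passed, without experiment 2, 3 genes, and without experiment 3, EGLN1 and EGLN3 only. Against FGFC these counts were 4, 3 and 1.

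Genes around the pathway were counted from lists of textbook members, which were also chosen with earlier results of these data known. Of 18 other glycolysis genes, 3 fell and 1 rose against bFGF. PGM1, which links glycogen and glucose phosphate, fell by 2.54 ± 0.29 (adjusted p = 0.000202 by limma), and PGAM2 rose by 1.04 ± 0.20 (adjusted p = 0.00574 by limma). GAPDH differed by 0.18 ± 0.20. Of 31 other hypoxia targets, 8 fell and 2 rose. Among them were STC2 (-1.62 ± 0.22), the collagen hydroxylase PLOD2 (-1.53 ± 0.21), the histone demethylase KDM4C (-1.49 ± 0.15) and the creatine carrier SLC6A8 (1.43 ± 0.17). Of 11 HIF subunits and regulators, ARNT2 (1.81 ± 0.24) and CITED2 (1.71 ± 0.20) rose, EPAS1, the HIF-2 alpha subunit, fell by 0.86 ± 0.22 (adjusted p = 0.0234 by limma), and HIF1A differed by 0.40 ± 0.20 (adjusted p = 0.246 by limma). None of 26 genes of mitochondrial respiration passed the test. Of 13 genes for the entry of pyruvate into the mitochondria, PC and PDK2 rose by 0.70 and 0.56, and of 12 genes of the pentose phosphate and serine branches TKT fell by 0.80.

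Markers of other cell states moved in the same comparison. The pluripotency markers NANOG and POU5F1 fell by 1.71 and 1.08, SOX2 rose by 1.32, and 4 of the 7 measured markers passed the test. Of 12 lineage markers, 3 rose and 2 fell. The neural gene PAX6 was well above background on 6 of 6 arrays without FGF and on 0 of 6 with bFGF, and was at least 27.6-fold higher. TUBB3 rose by 1.73, ACTA2 rose by 2.74 and TNNT2 fell by 2.65. Of the 6 fibroblast markers only THY1 passed the test (-1.70). Whether the differences in glycolysis and hypoxia genes came with these changes in cell state was not tested.

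The second question was whether FGFC and bFGF, given at the same concentration, left these genes at different levels. After 4 days in H1, 0 of the 33 genes passed the test, as did 0% of all probes. The differences ran from -0.44 (PKM) to 0.27 (EGLN3) with a median of -0.05, and none of the 33 genes had an unadjusted p under 0.05, against 1261 of all probes. For 27 genes the 95% interval of the difference lay within 2-fold. The 6 genes with a wider interval were SLC16A3 (-1.81 to 1.51), PKM (-1.03 to 0.16), CA9 (-1.03 to 0.22), BNIP3 (-1.02 to 0.83), ADM (-0.56 to 1.04) and EGLN3 (-0.48 to 1.03). A miss of the threshold does not show that FGFC and bFGF acted alike on these genes.

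Over the 5 long-term systems, with the system as a block, again 0 of the 33 genes and 0% of all probes passed the test, and the lowest adjusted p of these genes was 0.702 by limma. The differences ran from -0.74 to 0.37 with a median of 0.05, beside -0.04 over all probes. For 32 genes the 95% interval lay within 2-fold, and SLC16A3 was the exception (-1.61 to 0.13). Its difference between FGFC and bFGF was -1.41 for E8 Medium and -1.10 for MEF-CM with H1, -0.43 with KhES-1, 0.85 with 201B7 and -1.61 with 253G1. The lactate exporter was thus lower with FGFC in 4 of the 5 systems. VEGFA was the only 1 of the 33 genes with an unadjusted p under 0.05 (0.0416), against 2540 of all probes. It was lower with FGFC in each system, with differences of -0.14, -0.20, -0.15, -0.86 and -0.32 in the same order (mean -0.34, 95% interval -0.65 to -0.02). The second probe of VEGFA had a mean difference of -0.18 (adjusted p = 0.702 by limma). ENO1, an enolase, was higher with FGFC in each system, by 0.17, 0.08, 0.08, 0.19 and 0.15, and did not pass the test. PFKL in KhES-1 (1.04) was the only other difference of 2-fold or more in any system.

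**Figure D3:**
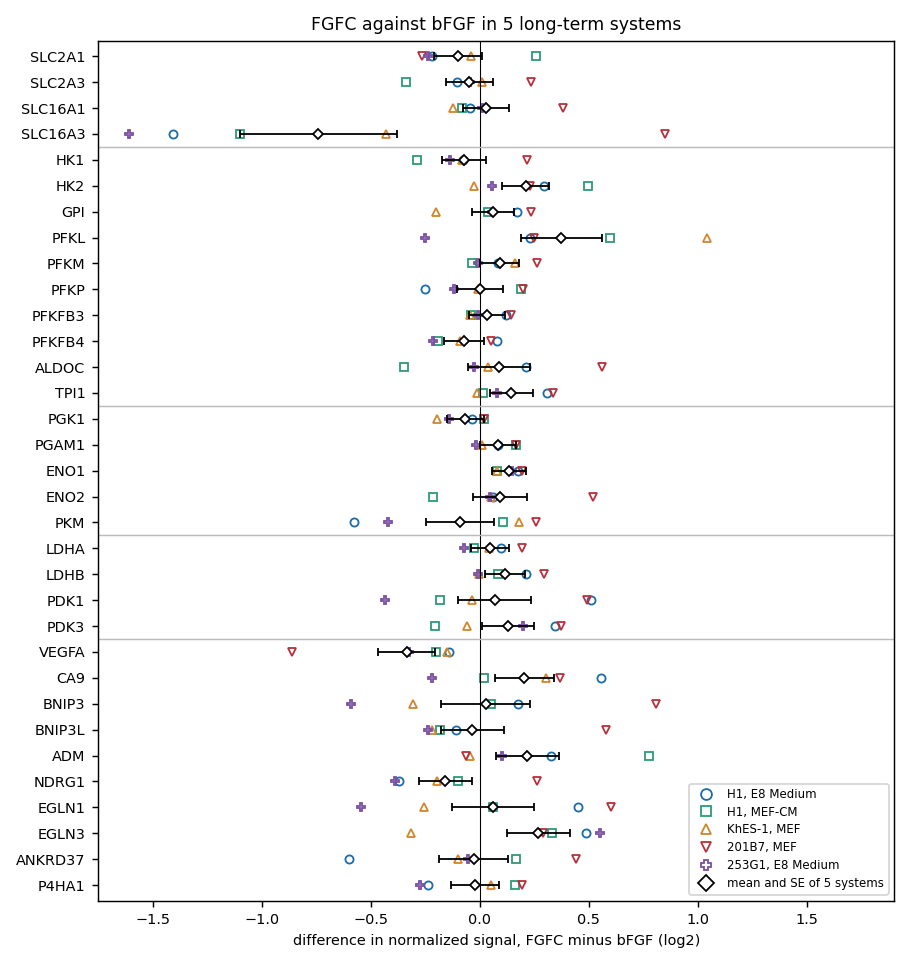
Difference in normalized signal (log2) between the long-term FGFC and bFGF cultures for the 33 measured genes. Coloured symbols are the 5 systems and diamonds with bars are the mean and SE from the fit, and SLC16A3 spreads most, from -1.61 in 253G1 to 0.85 in 201B7.

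The culture systems were compared next. H1 cells in MEF-CM were set against H1 cells in E8 Medium, so that the line was the same and the medium and FGF concentration were not. Of the 33 genes 6 rose and 6 fell, while 8.16% of all probes rose and 21% fell, and the median was -0.18 over the genes and -0.15 over all probes. In what follows 3 values are those of the pre-culture, the bFGF culture and the FGFC culture of a system. EGLN3 rose most, from -2.60, -2.17 and -1.68 in E8 Medium to 0.14, 0.16 and 0.49 in MEF-CM (2.42 ± 0.24, adjusted p = 0.000125 by limma). PDK1 fell most, from 1.20, 1.49 and 2.00 to -0.28, 0.21 and 0.03 (-1.57 ± 0.21, adjusted p = 0.000516 by limma). Neither gene overlapped between the media. NDRG1 went from -0.46, -1.63 and -2.0 to -0.22, 0.02 and -0.08 (1.27 ± 0.33, adjusted p = 0.0137 by limma). In the 4-day bFGF culture of experiment 1 in E8 Medium, which was not part of this comparison, NDRG1 stood at -0.16, within its range in MEF-CM.

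The 2 glucose carriers went opposite ways between these media. SLC2A3 stood at 2.04, 2.10 and 1.99 in E8 Medium and at 0.62, 1.24 and 0.91 in MEF-CM (-1.12 ± 0.19, adjusted p = 0.00179 by limma). SLC2A1 stood at 4.10, 4.35 and 4.13 and at 4.85, 4.58 and 4.84 (0.56 ± 0.19, adjusted p = 0.049 by limma). Neither carrier overlapped between the media. SLC2A3 has a near-identical copy, SLC2A14, and whether the probe tells the pair apart was not tested. Of the phosphofructokinase genes, PFKL and PFKP were higher in MEF-CM. PFKL stood at 1.87, 2.00 and 2.24 in E8 Medium against 3.18, 2.73 and 3.32 (1.04 ± 0.23). PFKP stood at 3.95, 4.13 and 3.88 against 4.85, 4.74 and 4.93 (0.85 ± 0.14). PFKM lay lower, at 3.45, 3.57 and 3.65 against 3.18, 3.35 and 3.32, and did not pass the test. ALDOC fell from 0.78, 0.96 and 1.17 to 0.02, 0.38 and 0.03 (-0.83 ± 0.21). For none of these genes did the cultures compared overlap between the media. The cultures of experiment 2 in E8 Medium were not part of this comparison. In them PFKL stood at 3.18 (pre-culture), 2.81 (bFGF) and 2.98 (FGFC), within its range in MEF-CM. ENO2, a second enolase, fell from 1.00, 1.03 and 1.09 to 0.15, 0.57 and 0.35 (-0.69 ± 0.19). PKM, the pyruvate kinase, rose from 4.36, 4.56 and 3.98 to 4.92, 4.94 and 5.05 (0.67 ± 0.19). In the pre-culture of experiment 2 in E8 Medium PKM stood at 5.03, also within its range in MEF-CM. LDHB, the other lactate dehydrogenase subunit, fell from 7.35, 7.84 and 8.05 to 7.08, 7.01 and 7.09 (-0.69 ± 0.18). PDK3 fell from -0.95, -0.52 and -0.18 to -1.28, -1.08 and -1.28 (-0.67 ± 0.19). The adjusted p of PFKL, PFKP, ALDOC, ENO2, PKM, LDHB and PDK3 lay between 0.00159 (PFKP) and 0.0204 (PDK3) by limma.

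Beside these genes, EPAS1 rose by 1.96, ACTA2 by 6.16 and AFP by 3.42 in MEF-CM. Of 12 lineage markers 5 were called higher and 3 lower, but SOX1 and NEUROD1 among the lower were not well above background on any array of either medium. Of the 6 fibroblast markers 2 were called higher (COL1A1 by 2.36 and COL1A2 by 1.26) and 2 lower, with a median of -0.35. The lower ones, COL3A1 and LUM, and also DCN, were not well above background on any of these arrays. The part of these markers in the result was not tested. Another probe of BNIP3L passed the test (-0.62, adjusted p = 0.0365 by limma) where the brightest did not (-0.63). Without the bFGF cultures 4 of the 33 genes passed and without the FGFC cultures 3 did. Each slide held cultures of 1 system, so that slide and system cannot be told apart in this and the next comparisons between systems.

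In E8 Medium, 253G1 was set against H1, so that medium and FGF concentration were shared and the line was not. Of the 33 genes 2 rose and 3 fell, and 4.95% of all probes rose and 9.6% fell. The median was 0.12 over the genes and 0.01 over all probes. PDK1 stood at -0.45, -0.12 and -0.56 in 253G1 and at 1.20, 1.49 and 2.00 in H1 (-1.94 ± 0.21, adjusted p = 0.000324 by limma). PDK3, a second kinase of the family, went the other way, with 0.33, 0.29 and 0.49 in 253G1 and -0.95, -0.52 and -0.18 in H1 (0.92 ± 0.19, adjusted p = 0.00926 by limma). PFKL stood at 0.97, 1.17 and 0.92 against 1.87, 2.00 and 2.24 (-1.01 ± 0.23, adjusted p = 0.0151 by limma). PFKP stood at 4.39, 4.55 and 4.43 against 3.95, 4.13 and 3.88 (0.47 ± 0.14, adjusted p = 0.0459 by limma), and another probe of PFKP differed by 0.30 (adjusted p = 0.168 by limma). CA9 also passed the test (-0.61), but it lay at or near background in both lines and its difference was 0.13 when signals were held at the lowest level above background. EPAS1 was higher in 253G1 by 1.17 and COL1A1 by 1.90, and their part in the result was not tested. Another probe of SLC2A3 passed the test (-0.67, adjusted p = 0.0187 by limma) where the brightest did not (-0.54). The count was 2 genes without the pre-cultures or the FGFC cultures and 1 without the bFGF cultures, and with arrays scaled to the median of the probes 5 genes rose and 2 fell.

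On feeder cells, 201B7 (10 ng/mL) was set against KhES-1 (5 ng/mL). Of the 33 genes 15 fell and 1 rose, against 11.3% of all probes that fell and 27.6% that rose. The median was -0.58 over the genes and 0.34 over all probes, and 31 of the genes lay below zero. With quantile normalization these medians were -0.37 and -0.05, and 11 genes fell and 1 rose. VEGFA was the gene that rose. It stood at 3.16, 1.93 and 1.07 in 201B7 and at -0.60, -0.14 and -0.29 in KhES-1 (2.39 ± 0.37, adjusted p = 0.00146 by limma). The level in 201B7 was highest in the pre-culture and lowest with FGFC. GPI, which converts glucose phosphate to fructose phosphate, stood at 3.33, 3.83 and 4.07 against 5.36, 5.61 and 5.41 (-1.71 ± 0.18, adjusted p = 0.00017 by limma). PFKL stood at 2.44, 1.87 and 2.12 against 3.87, 3.12 and 4.16 (-1.58 ± 0.23, adjusted p = 0.0011 by limma). LDHA stood at 4.03, 4.19 and 4.38 against 5.25, 5.37 and 5.41 (-1.14 ± 0.14, adjusted p = 0.000488 by limma). These 3 genes lay apart in all cultures. PDK1 stood at -1.36, -0.92 and -0.43 against -0.24, 0.23 and 0.19 (-0.96 ± 0.21, adjusted p = 0.00676 by limma).

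The hypoxia response genes ADM, EGLN1 and BNIP3 were lower in 201B7 as well. ADM stood at 3.56, 3.87 and 3.81 against 4.57, 5.23 and 5.19 (-1.25 ± 0.31, adjusted p = 0.0123 by limma). EGLN1 stood at -2.64, -2.05 and -1.45 against -1.16, -0.49 and -0.75 (-1.24 ± 0.24, adjusted p = 0.00394 by limma). BNIP3 stood at 1.29, 2.05 and 2.86 against 2.91, 3.62 and 3.31 (-1.21 ± 0.30, adjusted p = 0.0118 by limma). In 201B7 all 3 of these, and PDK1, were lowest in the pre-culture, whose 2 arrays had the lowest signal of all, and the part of that in these levels was not tested. CA9 was not well above background on any 201B7 array and was at least 1.08-fold lower, and its difference was 0.26 with another background correction. ALDOC stood at -0.90, -0.40 and 0.15 against 0.30, 0.48 and 0.52 (-0.81 ± 0.21). PGAM1, a phosphoglycerate mutase, stood at 4.73, 5.03 and 5.20 against 5.69, 5.75 and 5.76 (-0.74 ± 0.17), though another probe of it missed the threshold (-0.40, adjusted p = 0.0564 by limma). TPI1, which interconverts the triose phosphates, stood at 5.16, 5.42 and 5.76 against 6.10, 6.13 and 6.12 (-0.67 ± 0.18). PKM, PFKP, ENO2 and PGK1 also fell, by 0.62, 0.60, 0.59 and 0.53, and ENO2 overlapped between the lines. In all, 4 of the 5 genes of the lower pathway, 5 of the 10 of the upper pathway and none of the 4 transporters fell. The brightest probe of BNIP3L differed by -0.55 and did not pass, while its other probe differed by 0.88 (adjusted p = 0.00849 by limma). Another probe of LDHA differed by -0.61 (adjusted p = 0.0528 by limma), and another of PFKFB3 rose by 0.74 (adjusted p = 0.0433 by limma) where the brightest differed by -0.34.

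Other lists moved with these genes. Of the 26 genes of mitochondrial respiration, 18 fell and 1 rose, with a median of -0.58. The fibroblast gene DCN stood at 7.08, 6.28 and 4.85 in 201B7 and differed by 9.69 from KhES-1, and COL1A1 stood at 4.89, 4.11 and 3.81. Of the 6 fibroblast markers 4 were called higher, but COL3A1 and LUM were not well above background on any array of either line. Like VEGFA, DCN, COL1A1 and THY1 (6.23, 5.27 and 4.69) were highest in the pre-culture and lowest with FGFC. The part of these markers in the result was not tested. The count of the 33 genes was 9 without the pre-cultures, 3 without the bFGF cultures and 27 when arrays were scaled to the median of the probes.

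KhES-1 on feeder cells was also set against H1 in MEF-CM, which share the FGF concentration. Of the 33 genes 13 rose and 4 fell, and 13.8% of all probes rose and 25.7% fell. The median was 0.35 over the genes and -0.15 over all probes. These medians were 0.15 and 0.03 with quantile normalization, 0.27 and 0.12 with the normexp correction and 0.80 and 0.31 with arrays scaled to the median of the probes. PDK3 stood at 0.64, 0.60 and 0.54 in KhES-1 and at -1.28, -1.08 and -1.28 in H1 (1.81 ± 0.19, adjusted p = 8.76e-05 by limma). BNIP3 stood at 2.91, 3.62 and 3.31 against 1.33, 1.52 and 1.57 (1.80 ± 0.30, adjusted p = 0.00105 by limma), and BNIP3L at 1.41, 1.86 and 1.64 against 0.58, 0.77 and 0.59 (0.99 ± 0.23), with a difference of 0.24 at its other probe. Both mitophagy genes were thus higher in KhES-1 at their brightest probe. LDHA stood at 5.25, 5.37 and 5.41 against 4.37, 4.41 and 4.38 (0.95 ± 0.14), LDHB at 7.88, 7.88 and 7.87 against 7.08, 7.01 and 7.09 (0.82 ± 0.18), and PGK1, a kinase that yields ATP, at 5.97, 5.82 and 5.63 against 4.79, 4.84 and 4.86 (0.98 ± 0.17). GPI stood at 5.36, 5.61 and 5.41 against 4.63, 4.62 and 4.66 (0.82 ± 0.18). ENO2, PFKL, TPI1, PFKM and SLC16A1 also rose, by 0.67, 0.64, 0.61, 0.46 and 0.45, and PFKL overlapped.

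Both oxygen sensors passed the test in opposite directions. EGLN1 stood at -1.16, -0.49 and -0.75 in KhES-1 and at -1.91, -1.56 and -1.50 in H1 (0.86 ± 0.24, adjusted p = 0.0149 by limma). EGLN3 stood at -0.59, -0.60 and -0.92 against 0.14, 0.16 and 0.49 (-0.97 ± 0.24, adjusted p = 0.0094 by limma). VEGFA stood at -0.60, -0.14 and -0.29 against 0.73, 0.97 and 0.76 (-1.16 ± 0.37, adjusted p = 0.0282 by limma), and its second probe differed by -0.51 (adjusted p = 0.101 by limma). SLC2A1 stood at 3.47, 3.82 and 3.78 against 4.85, 4.58 and 4.84 (-1.07 ± 0.19, adjusted p = 0.00178 by limma). HK1 stood at 2.97, 2.96 and 2.88 against 3.50, 3.85 and 3.57 (-0.70 ± 0.15, adjusted p = 0.00366 by limma). By role, 4 of the 10 genes of the upper pathway rose and 1 fell, and 2 of the 5 of the lower pathway rose. PKM and PFKP lay lower in each KhES-1 culture than in any H1 culture and did not pass the test at their brightest probe. Of the 26 genes of mitochondrial respiration 13 rose and 1 fell in the same comparison. Of 12 lineage markers 1 rose and 7 fell (median -1.34), with AFP lower by a difference of -2.54 and ALB at least 2.30-fold lower. Of 7 pluripotency markers POU5F1, NANOG and SOX2 rose, by 0.73, 0.67 and 0.86. Of the 6 fibroblast markers 1 passed the test, DCN, which was well above background on 6 of 6 arrays of KhES-1 and on 0 of 6 of H1 and was at least 5.44-fold higher. The part of these markers in the result was not tested. The count of the 33 genes was 3 without the bFGF cultures and 10 without the FGFC cultures, and with arrays scaled to the median of the probes 19 genes rose and 1 fell. Other probes of PFKFB3 and PFKP passed the test (-1.79 and -0.39) where the brightest did not.

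**Figure D4:**
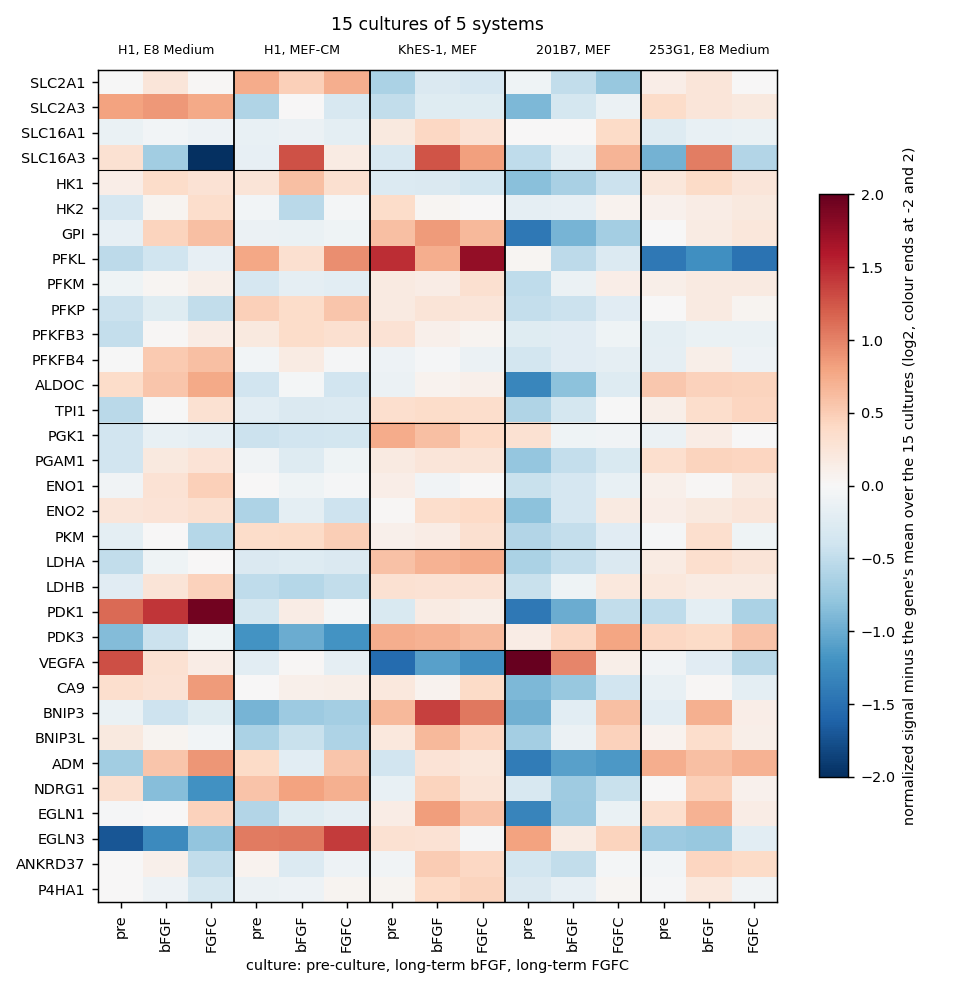
Normalized signal of the 33 measured genes in 15 cultures of 5 systems, shown as the distance from the gene's own mean over the 15 cultures (log2, colour ends at -2 and 2). Red is above and blue below that mean, and PDK1 is most red in H1 in E8 Medium, VEGFA is darkest in the 201B7 pre-culture, and PFKL is blue in 253G1.

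Across all systems, the 9 cultures with feeder cells or conditioned medium were set against the 6 cultures in E8 Medium. No test was made, since 3 systems against 2 cannot go below p = 0.1 in an exact permutation test. Of the 33 genes 1 lay higher and 2 lay lower without overlap, against 1.22% and 3.47% of all probes. SLC2A3 ran from 0.33 to 1.24 (median 0.91) with MEF and from 1.43 to 2.10 (median 1.79) in E8 Medium. ALDOC ran from -0.90 to 0.52 (median 0.15) and from 0.78 to 1.17 (median 0.91). EGLN3 was the gene that lay higher with MEF, with -0.92 to 0.49 (median -0.45) against -2.60 to -1.11 (median -1.67). The FGF concentration also differed between these sets, 5 or 10 against 100 ng/mL, and so did the medium. Neither can be told apart from the feeder cells or the conditioning by MEF.

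The last comparison set the differentiated H1 culture against 7 undifferentiated H1 cultures with bFGF in E8 Medium. With 1 differentiated culture there was no test, and genes at least 2-fold from the mean of the 7 were counted. Of the 33 genes 8 lay higher and 6 lower, against 13.5% and 15.9% of all probes, and the median was -0.03 over the genes and -0.18 over all probes. Of the 10 hypoxia response genes 6 lay higher and 3 lower, and of the 5 genes of the lower pathway none passed 2-fold. SLC16A3 stood at 5.32 in the differentiated culture and from -0.95 to 2.37 (median 0.82) in the others, a 23.1-fold difference of the means. NDRG1 stood at 2.42 against -1.63 to -0.16 (median -0.61). Both lay far outside the range of the 7 cultures. ADM stood at 1.59 against 4.06 to 5.52 (median 4.46), a difference of -3.05.

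SLC16A1, the other lactate carrier, stood at 0.19 against 1.94 to 2.22 (median 2.10). The 2 lactate carriers thus differed in opposite directions. EGLN1 stood at 0.68 against -1.60 to -0.47 (median -1.31), and EGLN3, at -2.55, lay within the range of the undifferentiated cultures. P4HA1 stood at 2.16 against 0.06 to 0.56 (median 0.37). The mitophagy gene BNIP3L stood at 3.23 against 1.15 to 1.80 (median 1.41). ANKRD37, another hypoxia target, stood at -0.46 against -2.78 to -0.90 (median -2.09), and 1 bFGF culture was well above the other 6. BNIP3 and PFKFB4 lay 1.59 and 1.56 higher, and the differences of PDK3, HK1, VEGFA and CA9 were -1.48, -1.43, -1.43 and -1.09. CA9 was not well above background in the differentiated culture and was at least 1.27-fold lower, and the second probe of VEGFA differed by -0.39. Other probes of LDHB and PGAM1 differed by -1.02 and -1.53, where the brightest differed by -0.76 and -0.78. The smallest differences were those of PFKP (4.06 against 3.93 to 4.23, median 4.07), SLC2A3 (1.95 against 1.80 to 2.10, median 1.98) and PFKM (3.63 against 3.45 to 3.71, median 3.58).

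**Figure D5:**
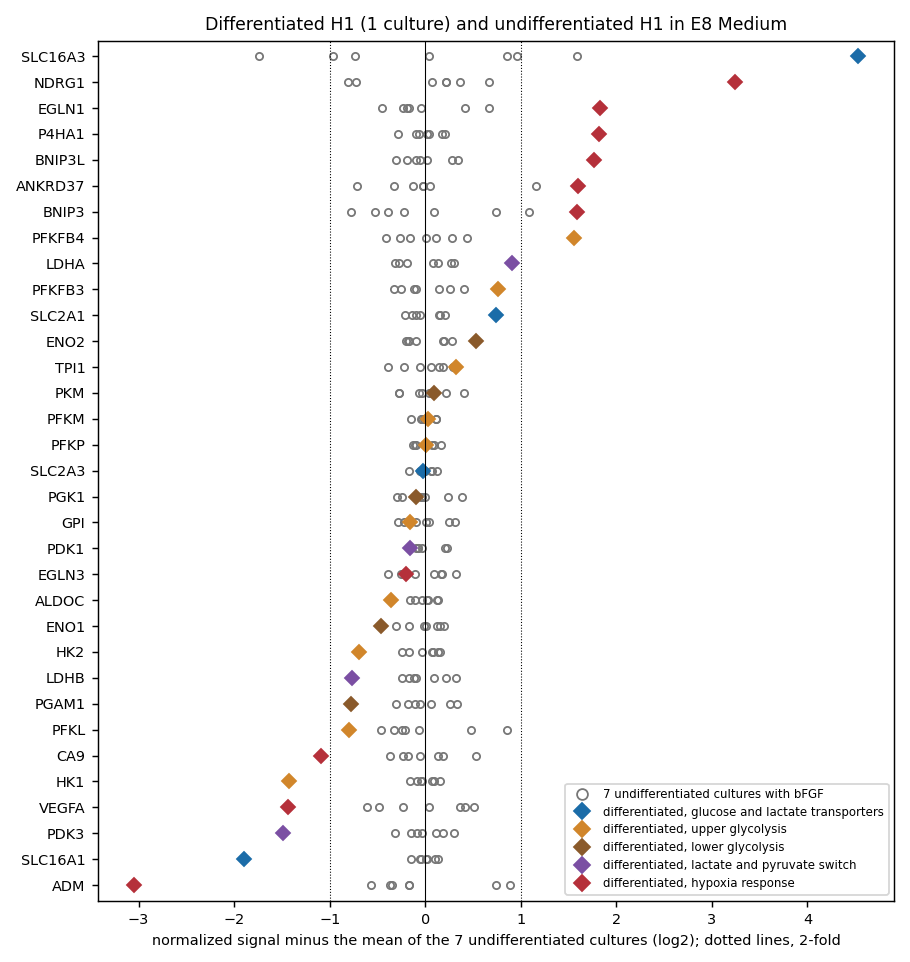
Normalized signal of the 33 measured genes in the differentiated H1 culture (filled diamonds, 1 culture) and in 7 undifferentiated H1 cultures with bFGF (open circles), each minus the mean of the 7 (log2). Dotted lines mark 2-fold, and 8 diamonds lie beyond the right line, led by SLC16A3 and NDRG1, and 6 beyond the left, led by ADM.

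Other genes stood as follows in the differentiated culture. Of 31 other hypoxia targets 15 lay higher and 2 lower, with BHLHE40, LOX and ANGPTL4 higher by 4.44, 4.01 and 4.01. Among the reference arrays, BHLHE40 and LOX were each well above background on only 3 of the 6 with bFGF for 4 days. The size of their differences thus depends on signals near background. EPAS1 lay 5.55 higher, and HIF1A differed by -0.21. PDK4 lay 2.97 higher, and of 12 genes of the pentose phosphate and serine branches 6 lay lower and 1 higher. Of the 26 genes of mitochondrial respiration 2 lay higher and 1 lower. Of 7 pluripotency markers 6 lay lower, with POU5F1 at -5.35 and NANOG at -4.41 from the mean of the 7 cultures. Of 12 lineage markers 9 lay higher, and of 6 fibroblast markers 5 lay higher and 1 lower, with COL3A1 at least 258-fold and LUM at least 454-fold higher. How far the differences in the glycolysis and hypoxia genes came with other cell types was not tested. Medium and FGF also differed from those of the 7 cultures and cannot be told apart from differentiation.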

How the data were processed

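RNA of 27 cultures of human pluripotent stem cells was hybridised in 1 colour, 2 arrays per culture, on 17 slides. The authors deposited the scanner output (Agilent Feature Extraction 10.7.3.1) with background-subtracted signal intensities for 62976 spots, of which 4259 were controls, and a value table of the series that holds the same values (0 spots differed). Flags for spots above background and for outliers were deposited in the same files as 0 or 1 values and were used as such.

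Signals under 1 were set to 1, outlier spots were left out (266 to 623 per array), spots of a probe were averaged as log2 values, the 75th percentile over the probes of the array was subtracted, and duplicate arrays were averaged. Of 42405 probes, 42400 were tested, with 596 values taken from the other array of the culture and 5 probes left out. RefSeq accessions gave 25708 probes a symbol (19715 genes).

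Differences were tested with limma 3.58.1 (lmFit and eBayes) in R 4.3.3, with Benjamini-Hochberg adjustment over all 42400 probes and a threshold of 0.05. The 4-day comparisons used 12 cultures with the group as the only term, the FGFC comparison over systems used 10 cultures with the system as a block, and the comparisons between systems used 15 cultures with system and arm. The 3 cultures of a system share an origin, so p measures the spread between cultures of a system. The code was tested on simulated data. Values per culture are given for at most the 12 genes with the largest difference past the test, and without a test for the 8 largest and the 3 smallest. SLC16A3, SLC2A3, PFKFB3, BNIP3, ENO1 and PFKL were given in more detail after their values were seen. One gene is not reported here. The methods name no test for the arrays. The members and all gene lists were chosen with earlier results of these data known.

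The experiment number was checked as a pairing. Deviations from the group means of same-numbered cultures correlated at 0.32, 0.23 and 0.19 (no FGF and bFGF), at 0.26, 0.23 and 0.26 (no FGF and FGFC) and at 0.15, 0.08 and 0.18 (FGFC and bFGF). All were positive and weak, and they do not settle whether the numbers paired the cultures. The main fits used no such block. With the experiment as a block, 16 genes passed against bFGF and 12 against FGFC, beside 13 and 10 in the main fits. Other settings covered background correction, scaling, single arrays, a signal floor, the probe rule, blocks, the samples in the fit and each culture or arm left out.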

Additional observations from a re-analysis of the deposited data

Results flagged for a closer look

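FGFC minus bFGF in 201B7 stood apart from the 4 other systems for 3 of 33 genes. The difference of BNIP3L was 0.58 in 201B7 and -0.24 to -0.11 in the others, that of SLC16A1 was 0.38 and -0.12 to 0.01, and that of VEGFA was -0.86 and -0.32 to -0.14. Each of these 3 rests on 1 pair of cultures and on the brightest probe. The other probe of BNIP3L stood at 0.35 with bFGF and at 0.27 with FGFC in 201B7. The second probe of VEGFA had a mean difference of -0.18 over the 5 systems, against -0.34 at the brightest. In the 7 undifferentiated H1 cultures with bFGF in E8 Medium, 1 of 33 genes had a single culture apart from the rest, which was ANKRD37 at -0.90 in the 4-day culture of experiment 2, with the other 6 at -2.78 to -2.01. In either set chance singles out about 1 in 20 genes.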

How the results depend on the processing

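Counts of genes past the test are given. Without FGF against bFGF (13 genes), the slide as a block, fitted without the pre-cultures, gave 7. Leaving out 1 experiment gave 2 to 6, and the experiment as a replicate block gave 16. Against FGFC (10 genes) the replicate block gave 12, with BNIP3 and NDRG1 added, leaving out 1 experiment gave 1 to 4 and a fit of only the 2 arms gave 6. FGFC against bFGF gave 0 genes under every setting run, the replicate block included.

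For H1 in MEF-CM against E8 Medium (12 genes), a rule of 2-fold gave 6 and leaving out 1 arm 3 to 12. For 253G1 against H1 (5 genes), the normexp correction, quantile normalization, the second array, the signal floor and a random slide block each gave 3, the first array and the 2-fold rule 2, probes well above background 8, all 11 cultures of H1 13, and leaving out 1 arm 1 to 2. For 201B7 against KhES-1 (16 genes), the median scale gave 27, the 2-fold rule 7 and leaving out 1 arm 3 to 14. For KhES-1 against H1 in MEF-CM (17 genes), the 2-fold rule gave 4 and leaving out 1 arm 3 to 14. For MEF against E8 Medium (3 genes without overlap), leaving out 1 system gave 4 to 6, with 6 without H1 in E8 Medium or without H1 in MEF-CM. CA9 changed sign with the signal floor (0.13, 253G1 against H1) and with normexp (0.26, 201B7 against KhES-1). The cause was not tested, except that a left-out arm or experiment leaves fewer cultures.

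Of 1430 values of genes past the test or past 2-fold under other settings, 1179 kept their direction and their side of the threshold. Another 240 kept the direction only, 9 no longer met the 2-fold or overlap rule and 2 turned. Some of the 1179 were fixed in advance and do not test the results. The value table of the series holds the same values (0 spots differed) and repeats the main result. For MEF against E8 Medium, a gene without overlap stays without overlap when 1 system is left out. All 15 such values were the same. CA9, at or near background on most arrays, is limited by signal. SLC16A3 is limited by the spread between experiments, with an SE of 0.76.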
